A study of Homo sapiens with 7 samples.

Results

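The cytoplasmic ribosomal protein genes were examined in insulin-expressing β-like cells made in vitro from H1, an established human embryonic stem cell line. Genes were chosen by symbol from the deposited count table: RPL or RPS with a number and an optional letter A, X or L, with RPLP0, RPLP1, RPLP2 and RPSA. Pseudogenes, Y-linked copies and the RPS6K kinases were left out. The rule found 81 of the 66025 gene IDs in the table, 49 for the large and 32 for the small ribosomal subunit. They lay on 21 chromosomes, with 12 on chromosome 19.

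All cells carried a doxycycline (Dox)-inducible small hairpin RNA, delivered by lentivirus and kept by puromycin selection, and no cloning step was described. In the iKD2 line the hairpin targets METTL14, one of the core proteins of the N6-methyladenosine mRNA methyltransferase. The iSCR line carries a non-targeting hairpin and is a separate line, so that line and hairpin cannot be told apart in comparisons with it, and for iKD2 without Dox against it Dox cannot be told apart from them either. The 7 libraries were iKD2 with Dox (iKD2 Dox+, replicates a, b and c), iKD2 without Dox (iKD2 Dox-, b and c) and iSCR with Dox (iSCR Dox+, a and b), and library values below follow this order. The cells were sorted with a zinc dye that stains insulin granules, and p-values measure the spread between these libraries. The study calls such libraries independent biological samples, and the labels name no culture for them.

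Every ribosome holds 1 copy of most ribosomal proteins, and cells keep the mRNAs of the whole set abundant and in balance. Most of these mRNAs begin with a C followed by a run of pyrimidines, the terminal oligopyrimidine (TOP) motif, through which the mTOR pathway and the RNA-binding protein LARP1 adjust their translation together. β-cells make insulin in bulk and depend on a high capacity for translation. The genes are also known for their many processed pseudogenes, intronless copies that can share reads with the parent gene. The data are mRNA levels only and hold no measure of translation.

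The starts of the genes that recur below are shown first, as 25 bases of the RefSeq GRCh38.p14 reference read 5′ to 3′ on the gene's strand, with 10 bases before the listed start and 15 from it. Capitals mark the unbroken run of C and T that opens with a C at the start. The first 6 genes are abundant or stood out in a comparison and hold the motif, the next 2 are the most variable genes and hold it as well, and the last 3 do not hold it at this start.
RPLP0 (chr12:120201097-120201121, minus strand): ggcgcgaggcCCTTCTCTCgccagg
RPL13A (chr19:49487598-49487622, plus strand): aaacctcctcCTTTTCCaagcggct
RPS6 (chr9:19380222-19380246, minus strand): gaagttggccCTCTTTTCCgtggcg
RPS10 (chr6:34426055-34426079, minus strand): catgctccttCCTTTCCagccccgg
RPS14 (chr5:150449725-150449749, minus strand): ccctcccactCTCTCTTTCCggtgt
RPL31 (chr2:101002279-101002303, plus strand): ccttcgcgctCTTCCTTTCCaactt
RPS9 (chr19:54200848-54200872, plus strand): gcttccgcgcCTCTTTCTCagtgac
RPL36A (chrX:101391001-101391025, plus strand): ctcgcggtttCTTTCTTTCCgcgcc
RPL3 (chr22:39319609-39319633, minus strand): gccgaccggcCTCTaccggcgggat
RPL9 (chr4:39458908-39458932, minus strand): taatgacgacagacgttctttcttt
RPS27L (chr15:63157463-63157487, minus strand): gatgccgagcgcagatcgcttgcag

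The motif searched was a C at the listed start followed by at least 4 bases that are each C or T, on the gene's strand only. RefSeq starts were listed for 64 of the 81 genes, and 46 of the 64 (71.9%) held the motif at 1 start or more, against 5.1% of 27305 genes with a listed start. The share was 72.0% for the small and 71.8% for the large subunit. When the run was allowed anywhere from 5 bases before to 10 bases from the start, it was found in 82.8% of the ribosomal protein genes and in 25.2% of all genes. Of 14 translation factor genes with a listed start, 13 held the motif at the start. A match describes these letters only, and RefSeq may list another start than the one used in β-like cells.

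Ribosomal protein genes took up about the same small share of every library. The summed counts of the 81 genes were 2.05%, 1.90% and 1.84% of the total in iKD2 Dox+, 1.89% and 1.97% in iKD2 Dox-, and 2.20% and 2.04% in iSCR Dox+. The range of iKD2 Dox+ took in both iKD2 Dox- libraries and iSCR Dox+ b, and only iSCR Dox+ a lay above every other library. Group means were 1.93% ± 0.113 (SD, n = 3), 1.93% ± 0.0579 (SD, n = 2) and 2.12% ± 0.109 (SD, n = 2). Large subunit genes held 2.08 to 2.40 times the counts of small subunit genes, lowest in iSCR Dox+ a and highest in iKD2 Dox+ a.

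**Figure D1:**
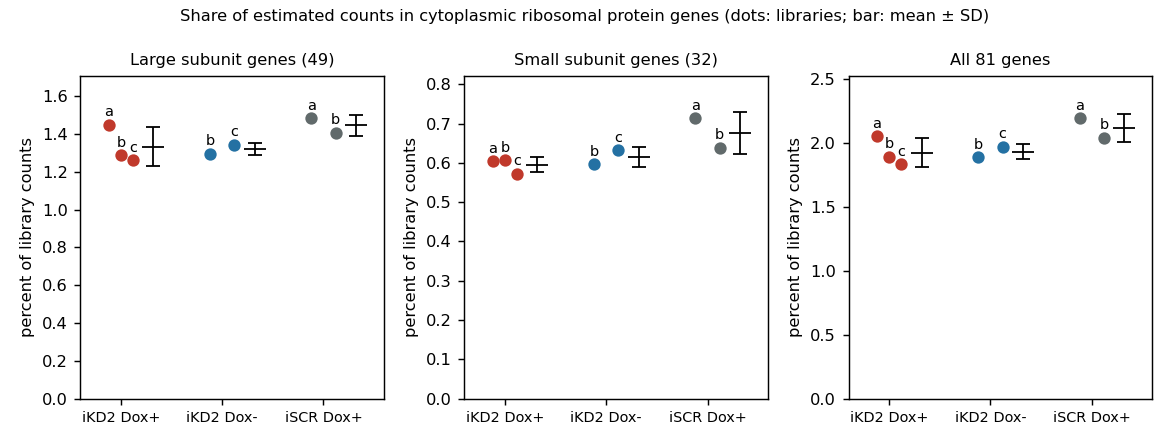
Share of all estimated counts of a library (vertical axes, percent, from 0) in large subunit genes, small subunit genes and all 81 genes, for the 3 groups on the horizontal axes. Dots are libraries marked by replicate letter and bars are the mean ± SD; for all genes the values run from 1.84% in iKD2 Dox+ c to 2.20% in iSCR Dox+ a.

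Sequencing totals were 14875429 to 20639156 estimated counts per library. The β-cell identity of the label was checked against 12 markers, all with counts in all 7 libraries. Insulin (INS) stood at 11625, 13581 and 11365 CPM (counts divided by the library's scaled total) in iKD2 Dox+, 17393 and 14630 in iKD2 Dox-, and 22298 and 21507 in iSCR Dox+. It was the 1 marker of the 12 that passed the test, with a log2 fold change of -0.85 for iKD2 Dox+ against the scramble line (edgeR adjusted p = 4.71e-04). The 12 markers summed to 25704 to 30073 CPM in iKD2 Dox+, 34167 to 37959 in iKD2 Dox- and 40117 to 40428 in iSCR Dox+. Markers of α-, δ- and γ-cells summed to 10370 to 14057, 13512 to 17432 and 13624 to 16871 CPM in the same order, and those of enterochromaffin cells to 960 to 1165, 1288 to 1414 and 849.6 to 1099. Ductal and acinar markers summed to 843 to 992 CPM in iKD2 Dox+, 448 to 574 in iKD2 Dox- and 494 to 594 in iSCR Dox+, with CEL at 0 in 4 libraries and PTF1A at 0 in 5. Proliferation markers gave 511 to 675, 333 to 381 and 280 to 437 CPM, and mesenchymal markers 1471 to 2135, 1030 to 1088 and 1357 to 1637. SPARC, of the mesenchymal list, was the 1 other marker that passed, higher in iKD2 Dox+ than in iKD2 Dox- by a log2 fold change of 1.95 (edgeR adjusted p = 9.22e-04). Pluripotency markers summed to 21.5 to 115, 25.3 to 40.8 and 47.3 to 78.5 CPM, with POU5F1 and NANOG at 0 in 4 libraries each. The β-cell sum was lowest and the ductal and proliferation sums highest in iKD2 Dox+, and their part in the ribosomal protein values was not tested. INS and CHGA made up most of the β-cell sum, and KRT19 most of the ductal and acinar sum. For iKD2 Dox+ against iKD2 Dox-, log2 fold changes were above 0 for 3 of 12 β-cell markers. They were above 0 for 7 of 9 ductal and acinar and 6 of 8 proliferation markers. For iKD2 Dox+ against iSCR Dox+ they were above 0 for 5 of 12 β-cell markers, so these markers did not all follow INS. The same comparison had values above 0 for 7 of 9 ductal and acinar and 8 of 8 proliferation markers. In bulk libraries, fewer cells of a type and less RNA per cell cannot be told apart. The targeted gene, METTL14, had 18.7, 16.3 and 49.1 CPM in the libraries labelled iKD2 Dox+, 39.4 and 22.6 in iKD2 Dox-, and 36.1 and 32.2 in iSCR Dox+. The highest METTL14 value of all was that of the library labelled iKD2 Dox+ c, the groups overlapped, and its log2 fold change with Dox against without in the iKD2 line was -0.14 ± 0.63 (SE, adjusted p = 1, edgeR). Group names below are those of the labels, which METTL14 mRNA did not separate.

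Within the set, counts ran over a wide range and a few genes took the most. The median gene had 193 CPM, averaged over the 7 libraries. Of the 81 genes, 78 had at least 5 CPM, 72 at least 50, 62 at least 100 and 7 at least 500. RPL13A, a large subunit protein, took the most counts, at 1283, 1274 and 1054 CPM in iKD2 Dox+, 1243 and 1136 in iKD2 Dox-, and 1413 and 1376 in iSCR Dox+. It ranked 45 among all gene IDs by mean CPM. RPLP0, the base of the stalk that recruits elongation factors, took 1074 CPM on average, and RPL3, which reaches the peptidyl transferase centre, 1015.

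To compare genes with one another, levels were divided by the length of the coding sequence of the principal transcript. On this scale the 10 highest genes were RPL41, RPL13A, RPLP2, RPLP0, RPLP1, RPS23, RPL13, RPL3, RPL19 and RPL26, from 2133 CPM per coding kilobase for RPL41 down to 753 for RPL26. RPL41 codes for the shortest of the proteins, with a coding sequence of 75 nucleotides against a median of 456. Reads from untranslated bases count in the level but not in this length, to an extent that differs between genes. The principal transcripts of RPL41 are 469 to 699 nucleotides long. All 3 proteins of the stalk were in this group. RPLP1 and RPLP2, which form the dimers of the stalk, stood at 1034 and 1400 CPM per coding kilobase against 1129 for RPLP0.

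RPS6, the substrate of S6 kinase, stood at 585, 489 and 448 CPM in iKD2 Dox+, 479.5 and 524 in iKD2 Dox-, and 607 and 443 in iSCR Dox+. RPSA, also known as the laminin receptor precursor, stood at 340, 402 and 329 CPM, 346 and 282 CPM, and 283 and 380.5 CPM in the same libraries. The groups overlapped for both genes. RPS27A, made as a fusion with ubiquitin, stood at 199, 171 and 149 CPM, 206 and 172 CPM, and 297 and 158 CPM. FAU, a related fusion gene outside the rule, averaged 192 CPM.

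The 3 members under 5 CPM are copies known from particular tissues. RPL10L, the testis copy of RPL10, had no count in any library, and 3 counts would correspond to 0.146 to 0.203 CPM. RPL3L, the striated muscle copy of RPL3, stood at 0.12, 0 and 2.35 CPM in iKD2 Dox+, 0.097 and 1.25 in iKD2 Dox-, and 0 and 4.88 in iSCR Dox+. RPL39L, known from testis and some tumours, stood at 0, 0.37 and 2.46 CPM, 0.98 and 1.14 CPM, and 0 in both iSCR Dox+ libraries. Several of these values lie at or under the level of 3 counts, and no fold change is given for either gene. Per coding kilobase, RPL3L averaged 1.02 CPM and RPL3 839, and RPL39L averaged 4.63 CPM and RPL39 445. RPS27L, a p53-inducible copy of RPS27, averaged 48.99 CPM per coding kilobase and RPS27 456. The principal transcript is 6434 nucleotides long for RPS27L and 359 for RPS27, so untranslated bases weigh differently in these values.

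Of the diverged copies that the rule does not take in, RPL7L1 averaged 72.4 CPM, RPL36AL 55.2, RPL26L1 26.1 and RPL22L1 14.3. RPL22L1, which is known to be held down by RPL22, stood at 15.9, 20.3 and 19.3 CPM in iKD2 Dox+, 19.3 and 18.0 in iKD2 Dox-, and 7.04 and 0.27 in iSCR Dox+. Its iSCR Dox+ libraries lay below the other 5, and the log2 fold change of iKD2 Dox+ against iSCR Dox+, 2.34 ± 1.18 (SE), did not pass the test (adjusted p = 0.699, edgeR). RPL22 itself stood at 254, 185 and 160 CPM, 133 and 183 CPM, and 114 and 229 CPM, with overlap between all groups.

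**Figure D2:**
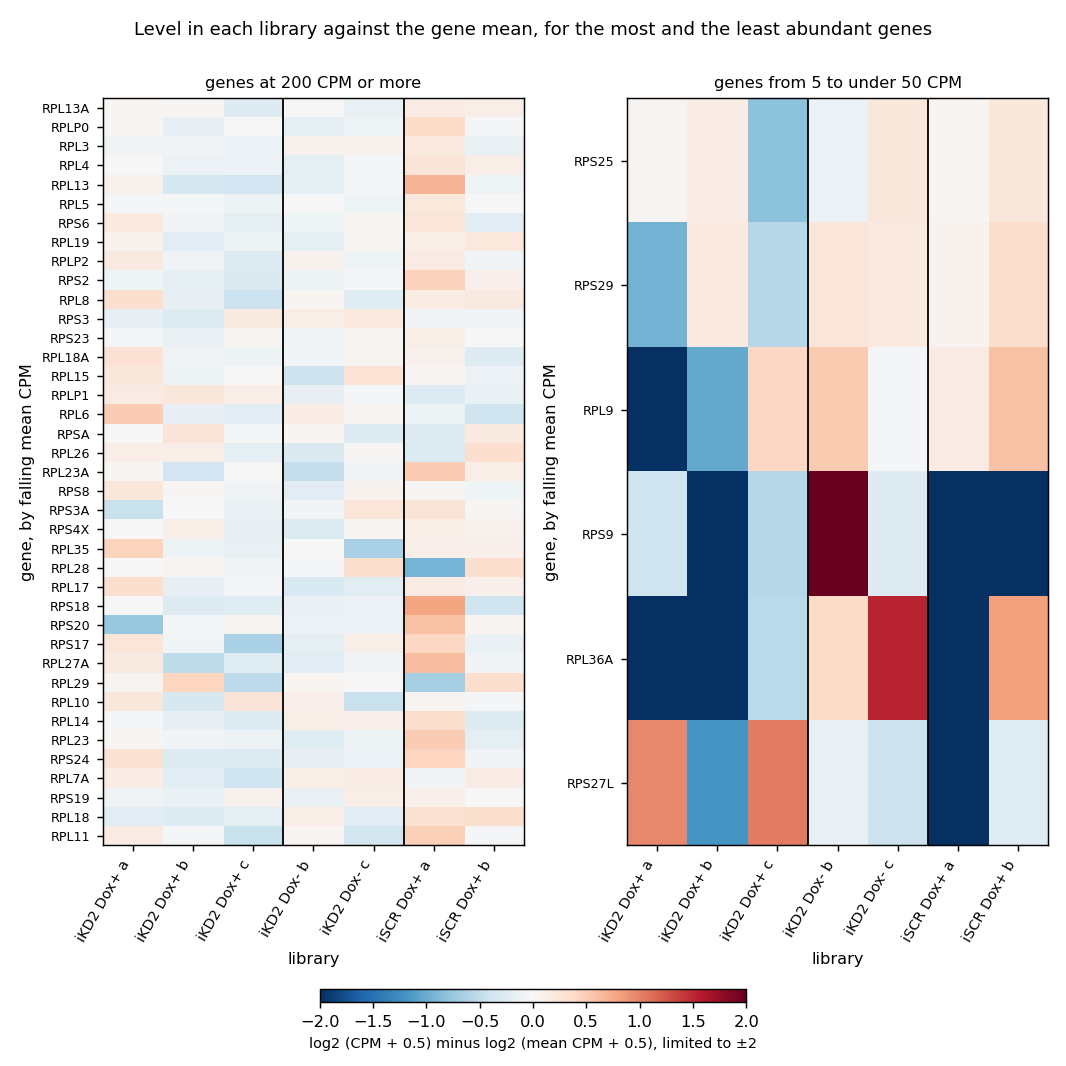
Level of the 39 genes with at least 200 CPM (left) and the 6 genes from 5 to under 50 CPM (right), one gene per line by falling mean level, in the 7 libraries (columns, groups divided by lines). Colour is the log2 difference of the library's CPM from the gene's mean with 0.5 added to both, limited to ±2: most of the left panel is pale, and the strong colours sit on the right in RPL9, RPS9, RPL36A and RPS27L.

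For most of the genes, libraries differed little. The highest library lay under 2 times the lowest for 52 of the 78 genes, and the median ratio was 1.69. The within-group coefficient of variation (CV, the pooled SD within groups over the mean) had a median of 18.5%. It was 17.9% for the 72 members with at least 50 CPM, against 24.1% for all 4276 genes tested at this level. Between 100 and 200 CPM, 23 members had a median CV of 18.4% and 1182 other genes 21.4%. Between 200 and 400 CPM the values were 18.9% for 26 members and 17.0% for 427 other genes, and between 400 and 800 CPM 11.7% for 10 and 13.6% for 131. At matched levels the members lay on either side of other genes.

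Among the 78 genes with at least 5 CPM, the 5 most even were RPS10, RPLP1, RPS23, RPL4 and RPL5. RPS10, at the mRNA entry of the small subunit, had a CV of 2.41%, with 157, 162 and 154 CPM in iKD2 Dox+, 170 and 181 in iKD2 Dox-, and 239.6 and 240.2 in iSCR Dox+. RPLP1 had a CV of 4.95%, RPS23 of the decoding centre 5.68%, RPL4 of the exit tunnel 5.78% and RPL5, which carries ribosomal RNA and binds MDM2, 6.42%. The 5 least even were RPS9 at 126%, RPL36A at 87.3%, RPS27L at 72.0%, RPL9 at 48.8% and RPL35A at 38.3%, all below 60 CPM on average.

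**Figure D3:**
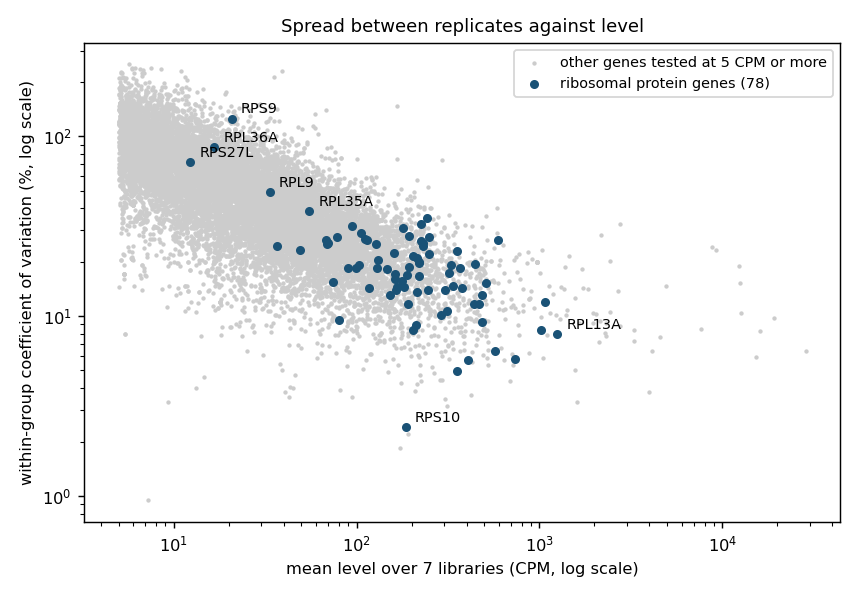
Within-group CV (vertical axis, percent, log scale) against mean level (horizontal axis, CPM, log scale) for genes tested at 5 CPM or more (grey) and the 78 ribosomal protein genes (blue). The CV falls with the level for both, and RPS9 (126%), RPL36A (87.3%), RPS27L (72.0%) and RPL9 (48.8%) lie at the upper left while RPS10 (2.41%) lies at the bottom.

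In some libraries many of the genes lay to the same side of their means. Against each gene's mean, the median log2 deviation of the 78 genes was 0.09, -0.07 and -0.13 in iKD2 Dox+, -0.06 and -0.0083 in iKD2 Dox-, and 0.18 and 0.04 in iSCR Dox+. The SD of these medians within groups was 0.09. iSCR Dox+ a was the highest of the 7 libraries for 32 genes and iKD2 Dox+ c the lowest for 22, and such counts were not taken over other genes. In iSCR Dox+ a, RPS18 stood at 424 CPM, and it lay between 186 and 242 CPM in the other 6 libraries.

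Between the iKD2 line with and without Dox, as many ribosomal protein genes lay above 0 as below, and most intervals were narrow. The median log2 fold change of iKD2 Dox+ against iKD2 Dox- was 0.00 over the 80 genes tested, 0.02 over large and -0.04 over small subunit genes, and 0.01 over all 22926 genes tested. Of the 80 genes, 40 had a value above 0 (50.0%), against 50.7% of all genes tested. In edgeR, 0 of 80 passed an adjusted p of 0.05, where 0.0393% of all genes tested did, and 2 had an unadjusted p under 0.05, where 3.72% of all genes did. Both, RPL36A and RPS9, were lower (2 lower against 1.67% of all genes tested, 0 higher against 2.04%), and both also differed by over 1.5-fold, the criterion the study states, which 3.55% of all genes met. A fold change over 1.5 in either direction, whatever its p, was found for 6 members (7.5%) and for 51.5% of all genes tested. DESeq2 and limma voom called 0 as well. The 95% confidence interval lay within 1 log2 unit of 0 for 65 of the 80 genes (81.2%), against 9.33% of all genes tested, and the median SE was 0.26 against 1.35. Such shares of all genes tested were not matched for level, here or in the comparisons below. The spread that edgeR fits per gene (biological CV) had a median of 0.28 for members and 0.99 for all genes tested. It was 0.33 for genes with at least 50 CPM, a level that 72 members reached.

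The groups did not overlap for 7 genes that were lower in iKD2 Dox+ (8.75%, all genes tested 11.6%) and 4 that were higher (5%, all genes 8.74%). Among the lower ones were RPL3, RPL14, RPL36A and RPS9, and the higher ones RPL17, RPLP1, RPS21 and RPS26. Apart from RPL36A, RPS9 and RPL9, which are taken up below, the lowest fold changes were those of RPS29 (log2 -0.59 ± 0.53, SE) and RPL39 (-0.52 ± 0.38), and both genes overlapped between groups. RPL39 stood at 58.4, 56.8 and 54.5 CPM in iKD2 Dox+ and at 55.9 and 106 in iKD2 Dox-, and without iKD2 Dox- c its log2 fold change was 0.012. The highest fold changes were RPS27L (0.88 ± 1.22), RPS26 (0.61 ± 0.38), RPS21 (0.56 ± 0.37), RPS13 (0.54 ± 0.39) and RPL10A (0.48 ± 0.31). RPS26, which lines the mRNA exit of the small subunit, stood at 79.7, 95.2 and 84.4 CPM with Dox and at 65.4 and 47.9 without. RPS27L stood at 24.5, 5.17 and 25.8 CPM with Dox and at 11.04 and 9.001 without, so that its lowest library was an iKD2 Dox+ one. Leaving out 1 library moved 9 of the 10 lowest and highest fold changes of this comparison by over 1.5 times, as it did for 6 of 10 and 10 of 10 in the comparisons of iKD2 Dox+ and iKD2 Dox- with the scramble line.

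**Figure D4:**
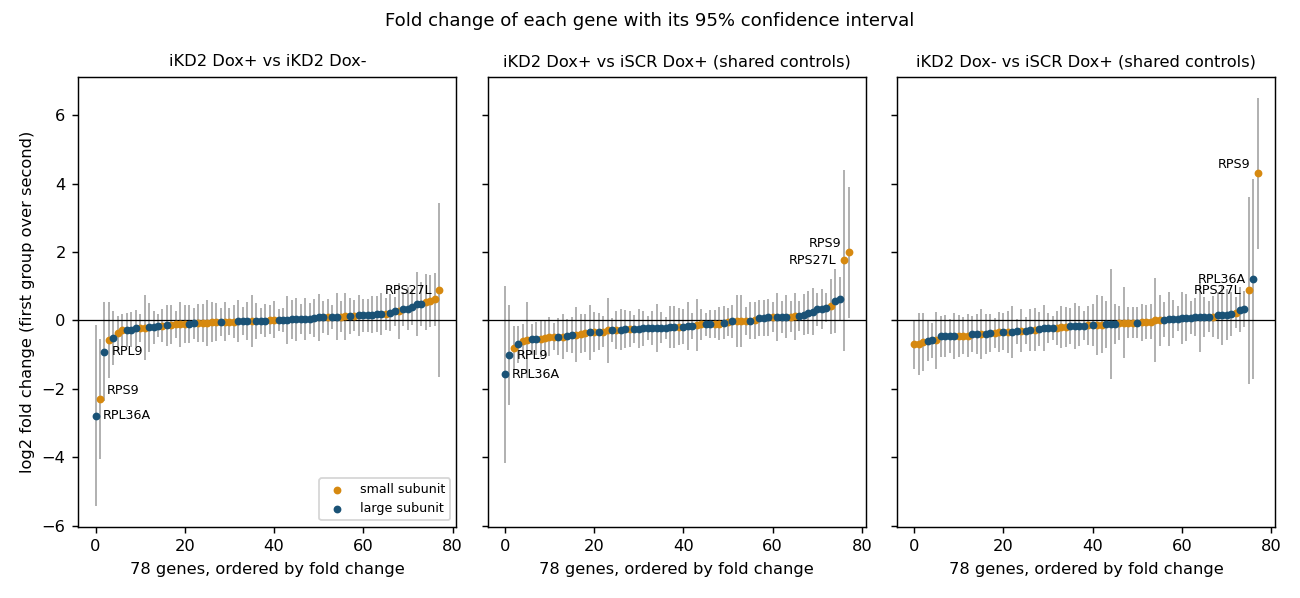
Log2 fold change (vertical axes) with its 95% confidence interval (grey lines) from the edgeR fit for the 78 genes with at least 5 CPM, ordered by value on the horizontal axes, for the 3 comparisons. Most intervals lie within 1 log2 unit and include 0, and the values beyond 0.85 belong to RPS9, RPL36A, RPL9 and RPS27L; the panels with iSCR share their iSCR Dox+ libraries.

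Against the scramble line, levels in iKD2 Dox+ were lower for most of the genes, by small amounts that no gene carried past the test. The median log2 fold change was -0.18 over the 80 genes, against 0.08 over all genes tested and -0.01 over genes with at least 50 CPM. It was -0.18 for large and -0.22 for small subunit genes, and -0.11 for the 3 stalk genes. Values above 0 were found for 22 genes (27.5%, all genes tested 52.9%). Without iSCR Dox+ a, the library with the highest levels, the median was -0.070, and without iKD2 Dox+ c it was -0.11. In edgeR 0 of 80 passed an adjusted p of 0.05 (all genes tested 0.0262%), and the lowest adjusted p was 0.655. An unadjusted p under 0.05 was reached by 7 genes that were lower (8.75%, all genes 2.78%) and 1 that was higher (1.25%, all genes 3.94%), together 8 genes (10%, all genes 6.72%). With the study's further limit of 1.5-fold these were 4 (5%, all genes 6.52%), and 10 members (12.5%) differed by over 1.5-fold whatever their p, against 58.8% of all genes tested. The 10 include RPL3L and RPL39L, which averaged under 5 CPM and whose fold changes are not given for that reason.

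Among the 7 lower genes were RPS14, RPL31, RPS10 and RPL13, and the higher one was RPS9. RPS14, a small subunit platform protein deleted in a form of myelodysplasia, stood at 90.0, 68.6 and 82.0 CPM in iKD2 Dox+ and at 165 and 118 in iSCR Dox+. The groups did not overlap, and the log2 fold change was -0.82 ± 0.31 (SE, adjusted p = 0.678, edgeR). RPL31, at the rim of the exit tunnel, stood at 142, 111 and 155 CPM against 246 and 195, again without overlap, and its log2 fold change was -0.70 ± 0.26 (SE, adjusted p = 0.655). RPS10, with the values given above, had -0.60 ± 0.24 (SE, adjusted p = 0.690). DESeq2, which called far more of all genes tested than edgeR, called RPL31 and RPS10 (adjusted p = 0.0467 and 0.0314), and limma voom called 0. The counts over all genes are given further below. For RPL13 the libraries overlapped, at 631, 464 and 453 CPM in iKD2 Dox+ and 951 and 557 in iSCR Dox+. Without iSCR Dox+ b, which leaves 1 iSCR library, the log2 fold changes of RPL13 and RPS18 were -0.88 and -0.96. With all libraries they were -0.55 and -0.48.

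In this comparison 15 genes were lower without overlap (18.8%, all genes tested 9.23%) and 2 were higher (2.5%, all genes 11.4%). Among the 15 were RPL4, RPL5, RPL13A, RPL23A, RPL31, RPL37A, RPS10 and RPS14, and the 2 were RPLP1 and RPS9. RPLP1 stood at 395, 412 and 388 CPM in iKD2 Dox+ and at 295 and 322 in iSCR Dox+, and its log2 fold change was 0.37 ± 0.20 (SE, adjusted p = 0.699, edgeR). The other high values were RPS27L (1.76 ± 1.27), RPL10A of the L1 stalk (0.62 ± 0.31), RPL35A (0.57 ± 0.45) and RPS13 (0.40 ± 0.39). That of RPS27L was 0.84 without iSCR Dox+ a and 4.91 without iSCR Dox+ b, and that of RPL35A was 0.18 without iKD2 Dox+ a. The interval lay within 1 log2 unit of 0 for 58 genes (72.5%, all genes tested 8.49%).

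The iKD2 line without Dox, set against the same 2 scramble libraries, also gave values below 0 for most of the genes. The median log2 fold change was -0.15 over the 80 genes and 0.04 over all genes tested, with 25 genes above 0 (31.2%, all genes 51.8%), and -0.080 without iSCR Dox+ a. Because both comparisons use the same iSCR Dox+ libraries, they are not independent of each other. In edgeR 0 of 80 genes passed (all genes tested 0.0131%), the lowest adjusted p being 0.527, and 2 genes, RPS9 and RPL23A, had an unadjusted p under 0.05 (2.5%, all genes 4.45%), 1 higher (all genes 2.66%) and 1 lower (all genes 1.79%). Both also met the study's 1.5-fold limit (all genes 4.38%), but RPL23A fell under it with its pseudogenes added (log2 -0.35) and without iSCR Dox+ a (-0.39) or iKD2 Dox- b (-0.40). In all, 10 members (12.5%) differed by over 1.5-fold whatever their p, against 57.8% of all genes, and RPL3L and RPL39L, under 5 CPM on average, were again among them. DESeq2, again with far more calls among all genes than edgeR, called 1 member, RPS9, and limma voom 0. There was no overlap for 24 genes that were lower (30.0%, all genes tested 13.3%) and for 4 that were higher (5%, all genes 19.9%), the latter RPL6, RPL39L, RPS3 and RPS9. The interval lay within 1 log2 unit of 0 for 56 genes (70%, all genes 7.33%).

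The lowest values in this comparison were RPS14 (-0.70 ± 0.35), RPS28 (-0.69 ± 0.43), RPS26 (-0.63 ± 0.41), RPL37A (-0.59 ± 0.29) and RPL23A (-0.59 ± 0.25). RPS28 stood at 65.2 and 45.1 CPM in iKD2 Dox- and 99.9 and 78.2 in iSCR Dox+. RPL37A stood at 173 and 123 CPM against 248 and 198, and RPS26 at 65.4 and 47.9 against 59.4 and 116. RPS26 was thus the 1 of the 5 that overlapped. The highest values beside RPS9 were RPL36A (1.21 ± 1.37), RPS27L (0.88 ± 1.32), RPL6 (0.33 ± 0.26) and RPL28 (0.31 ± 0.31). RPL28 stood at 242 and 311 CPM against 131 and 314, and without iSCR Dox+ a its log2 fold change was -0.18, while that of RPS27L was -0.037.

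Genes with and without the TOP motif at their start had close median fold changes. For the 46 members with the motif the medians were -0.02, -0.17 and -0.12 in the 3 comparisons in the order given, and for the 17 tested members without it 0.02, -0.11 and -0.11. Among other genes with at least 50 CPM the medians were -0.03, -0.10 and -0.05 for 280 genes with the motif and 0.02, 0.01 and -0.03 for 3042 without. No member of either kind passed the test, and these medians carry no test of their own.

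RPS9, which binds ribosomal RNA in the body of the small subunit, had the highest CV of the 78 genes with at least 5 CPM. It spans chr19:54200742-54249003 on the plus strand (GENCODE 29, GRCh38). Its level was 15.6, 3.20 and 13.8 CPM in iKD2 Dox+, 90.0 and 17.4 in iKD2 Dox-, and 3.05 and 2.39 in iSCR Dox+. The groups did not overlap in any comparison, and the iKD2 Dox- mean rested mostly on library b. The log2 fold change was -2.30 ± 0.85 (SE, adjusted p = 1) for iKD2 Dox+ against iKD2 Dox-, 1.99 ± 0.92 (SE, adjusted p = 0.699) for iKD2 Dox+ against iSCR Dox+, and 4.30 ± 1.07 (SE, adjusted p = 0.527) for iKD2 Dox- against iSCR Dox+, all by edgeR. The last passed in DESeq2 (adjusted p = 4.88e-04). In edgeR fits that leave 1 library in a group it was 5.04 without iKD2 Dox- c and 4.48 without iSCR Dox+ a. It was 4.14 without iSCR Dox+ b and 2.67 without iKD2 Dox- b. Without iKD2 Dox- b the value for iKD2 Dox+ against iKD2 Dox- was -0.68. The counts of RPS9 were not whole in any of the 7 libraries, and its annotated pseudogene held no counts. Per coding kilobase it averaged 35.7 CPM, rank 78 of the 81 genes, where the median of the set was 413, and the part of read sharing in these values was not tested. Of all IDs, 6656 had no name in the table used here, so counts at unnamed copies of RPS9 could not be matched, and the values are those of this ID and may not hold all reads of the gene.

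Kallisto, the program behind the deposited counts, divides reads that fit several transcripts. Where the transcripts belong to different gene IDs, this leaves counts per gene that are not whole. For 72 of the 81 genes (88.9%) the count was not whole in at least 1 library and for 30 (37.0%) in all 7, against 52.3% and 6.77% of 15870 protein-coding genes with at least 50 counts in total. Most members had far more than 50 counts, and these shares were not matched for level. A count within 1e-06 of a whole number was taken as whole. With a tolerance of 0.01, chosen after the data had been seen, the numbers were 69 and 19 genes, against 51.1% and 5.44%. Of 1132 annotated pseudogenes named after a member, 267 had at least 1 count. Pseudogenes took under 1% of the family's counts for 54 members and over 10% for 5, which were RPL9 (39.5%), RPL22 (38.6%), RPL23A (29.8%), RPS2 (12.7%) and RPL32 (11.1%).

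RPL36A, a large subunit protein near the exit site for tRNA, gave the lowest fold changes of both iKD2 Dox+ comparisons. It spans chrX:101390824-101396154 on the plus strand, and a read-through gene, RPL36A-HNRNPH2, starts in it. RPL36A stood at 0.66, 3.35 and 11.3 CPM in iKD2 Dox+, 21.9 and 48.8 in iKD2 Dox-, and 0.77 and 29.8 in iSCR Dox+. The log2 fold change was -2.79 ± 1.25 (SE, adjusted p = 1, edgeR) against iKD2 Dox- and -1.58 ± 1.22 (SE, adjusted p = 0.755) against iSCR Dox+, the latter 2.76 without iSCR Dox+ b. The read-through gene ran the other way, at 99.7, 61.7 and 45.4 CPM, 27.3 and 18.9 CPM, and 58.3 and 26.7 CPM in the same libraries. Their sum was 100.4, 65.1 and 56.7 CPM in iKD2 Dox+, 49.2 and 67.7 in iKD2 Dox-, and 59.0 and 56.5 in iSCR Dox+, and its CV was 27.2% where that of RPL36A alone was 87.3%. With the sum in place of RPL36A, an alternative added after the data had been seen, the fold changes were 0.34 and 0.36, so that the direction turned in both comparisons. Counts of the read-through gene may hold reads of HNRNPH2, the other gene in its name, which were not separated. The sum is thus not a level of RPL36A alone.

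**Figure D5:**
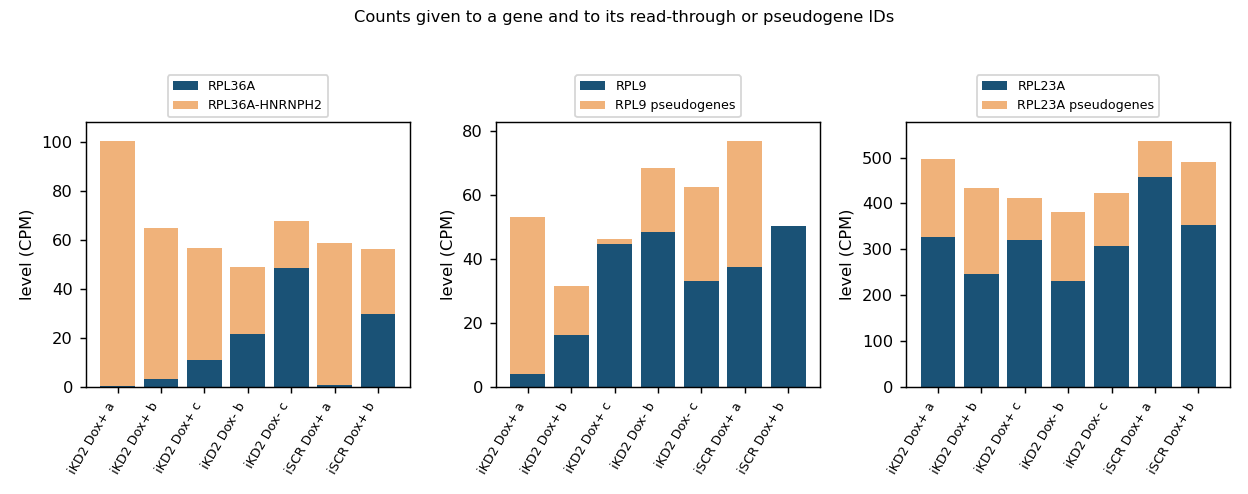
Level in CPM (vertical axes, from 0) of RPL36A, RPL9 and RPL23A (blue) with the read-through gene or the summed pseudogenes of the same name stacked on top (orange) in the 7 libraries on the horizontal axes. The stacks are more even than the blue bars: the CV is 27.2% against 87.3% for RPL36A, 22.2% against 48.8% for RPL9 and 8.23% against 17.5% for RPL23A. Counts of the read-through gene may include reads of HNRNPH2.

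RPL9, at the factor-binding side of the large subunit, had a like pattern with its pseudogenes, of which RPL9P9 on chromosome 15 held nearly all counts. RPL9 stood at 4.15, 16.2 and 44.7 CPM in iKD2 Dox+, 48.5 and 33.1 in iKD2 Dox-, and 37.5 and 50.4 in iSCR Dox+. Its pseudogenes stood at 48.9, 15.5 and 1.54 CPM, 19.98 and 29.4 CPM, and 39.3 and 0 CPM in the same libraries. The log2 fold changes of RPL9, -0.91 ± 0.70 and -1.02 ± 0.70 (SE) for iKD2 Dox+ against iKD2 Dox- and iSCR Dox+, were -0.59 and -0.54 with the pseudogenes added. They were -0.42 and -0.53 without iKD2 Dox+ a, and -2.01 and -2.12 without iKD2 Dox+ c. RPL23A, at the exit of the peptide tunnel, had 327, 245.5 and 320 CPM in iKD2 Dox+, 231 and 307 in iKD2 Dox-, and 458 and 352 in iSCR Dox+, and its pseudogenes 169, 189 and 92.9 CPM, 151 and 115 CPM, and 77.1 and 138 CPM.

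Adding copies did not make every gene more even. The CV went from 31.0% to 24.2% for RPL22 with its pseudogenes and from 29.1% to 17.1% for RPL32, but from 11.7% to 12.4% for RPS2. With the read-through gene RPS10-NUDT3, which ran from 0 to 34.9 CPM, that of RPS10 went from 2.41% to 9.07%. With RPL17-C18orf32 that of RPL17 went from 13.9% to 18.8%.

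The other genes of the ribosome pathway gave no call in edgeR. An unadjusted p under 0.05 was reached by 3.72%, 6.72% and 4.45% of all genes tested in the 3 comparisons in the order given. Of 21 further TOP mRNAs for translation factors and related proteins, 0 passed the edgeR test in any comparison, and 0, 3 and 1 had an unadjusted p under 0.05, with median log2 fold changes of -0.03, -0.10 and -0.05 in the 3 comparisons in the order given. The 3 highest were the elongation factors EEF1A1 and EEF2 and the tumour protein TPT1, at 2746, 2043 and 813 CPM on average. EEF1A1, which delivers aminoacyl-tRNA, stood at 2640, 2684 and 2788 CPM in iKD2 Dox+, 2296 and 2361 in iKD2 Dox-, and 3561 and 2893 in iSCR Dox+. Its groups did not overlap in any comparison, lowest in iKD2 Dox- and highest in iSCR Dox+, and no difference passed the edgeR test. Of 28 ribosome assembly genes, led by NCL, NPM1 and XPO1 at 715, 361 and 134 CPM, 0 passed and 1, 3 and 5 had an unadjusted p under 0.05, with medians of 0.11, -0.12 and -0.17. Of 14 RNA polymerase I genes, led by POLR1A, UBTF and TAF1D at 112, 93.4 and 52.5 CPM, 0 passed and 0, 1 and 0 had an unadjusted p under 0.05, with medians of -0.03, -0.02 and -0.05. For 12 host genes of small nucleolar RNAs, led by SNHG29, SNHG16 and SNHG5 at 101, 80.7 and 57.2 CPM, the medians were -0.01, -0.47 and -0.51 with 0 passing and 1, 0 and 0 at an unadjusted p under 0.05. The 16 mTOR and TOP-binding genes, led by LARP1, EIF4EBP2 and TSC2 at 274, 132 and 129 CPM, had medians of 0.08, 0.19 and 0.14, and the 10 genes that link ribosomal proteins to p53, led by MDM4, MDM2 and RRM2B at 80.5, 79.0 and 40.6 CPM, had 0.09, 0.11 and 0.14, with 0 passing and 0 at an unadjusted p under 0.05 in either list. The 13 mRNAs encoded by mitochondrial DNA, whose own ribosomes use none of the 81 proteins, had medians of 0.20, 0.03 and -0.17 and 0 calls, with 0, 2 and 1 at an unadjusted p under 0.05.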

How the data were processed

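RNA was prepared by the authors from sorted cells with a stranded total-RNA kit. The deposited values are estimated counts per gene, made per the labels and the study's methods with fastp, kallisto and tximport, not scaled for depth or length. Versions, genome build, annotation and strand setting were not given in the sources used here. Overlapping or near-identical genes are uncertain.

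Of 66025 Ensembl IDs, 59369 had a symbol in the name table used here and 6656 did not. Pseudogenes, read-through genes, coordinates and coding lengths came from GENCODE 29 (GRCh38), matched by ID. In R 4.3.3, edgeR 4.0.16 was run on rounded counts of the 22926 genes kept by filterByExpr, among them 80 of the 81 members. TMM scaling and the robust quasi-likelihood test were used on all groups together, with Benjamini-Hochberg adjustment over every gene tested and calls at 0.05. The SE is the log2 fold change over the root of F. Levels are TMM-scaled CPM.

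Named genes are the members with the 5 largest and the 5 smallest log2 fold changes of a comparison at a mean of at least 5 CPM, and the extremes of level, CV and pseudogene share, with the diverged copies, stalk genes, RPSA, RPS6, RPS27A and FAU. Some genes that meet these rules are not reported here. Genes named for groups that do not overlap, for an unadjusted p or for an alternative, and RPS18 and EEF1A1, were picked after their values had been seen. Members, lists and this rule were chosen with earlier results of these data known. Alternatives were other scaling, filters and tools (DESeq2 1.42.0, limma 3.58.1), a replicate block, a fit without the uninvolved group, pseudogenes added, genes with whole counts only, other totals for the share, and each library left out in turn. Read-through genes were added as an alternative after the data had been seen. Counting limits (3 counts) cover counting error only.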

Additional observations from a re-analysis of the deposited data

How the results depend on the processing

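The count of ribosomal protein genes called was 0 for each comparison in edgeR and stayed at 0 under every alternative for iKD2 Dox+ against iKD2 Dox-. DESeq2 gave 2 for iKD2 Dox+ against iSCR Dox+ and 1 for iKD2 Dox- against iSCR Dox+ (among all genes tested it called 231, 750 and 411 where edgeR called 9, 6 and 3). With each library left out in turn the counts ran from 0 to 0, 0 to 2 and 0 to 1, and a group left with 1 library was assumed to vary like the others. The median log2 fold changes then ran from -0.08 to 0.09, -0.25 to -0.070 and -0.20 to -0.08. The letters a, b and c are shared between groups, but same-letter libraries did not deviate together (correlations from -0.025 to 0.015 across genes). The replicate block gave 0 calls in each comparison and medians of -0.07, -0.13 and -0.07. The share of counts, 1.93%, 1.93% and 2.12% in iKD2 Dox+, iKD2 Dox- and iSCR Dox+, was 2.24%, 2.27% and 2.47% of the counts of protein-coding genes and 1.999% in iKD2 Dox- without mitochondrially encoded genes, and ran from 1.87% to 1.97%, 1.89% to 1.97% and 2.04% to 2.20% with 1 library left out. For the 30 gene and comparison pairs with the 5 lowest and 5 highest fold changes, 542 values came from alternatives, of which 530 kept direction and call, 6 turned direction and 6 passed the threshold. With a tolerance of 0.01 for a whole count, 19 genes in place of 30 had counts that were not whole in all 7 libraries. RPL36A turned with the read-through gene added (0.34 against iKD2 Dox- and 0.36 against iSCR Dox+) and without iSCR Dox+ b (2.76; from -2.94 to 2.76 over the libraries left out). RPL39 for iKD2 Dox+ against iKD2 Dox- ran from -0.92 to 0.012, and RPL28 and RPS27L for iKD2 Dox- against iSCR Dox+ from -0.18 to 1.076 and -0.037 to 4.03. Size factors of DESeq2 and upper-quartile scaling left the median of all genes within 0.086 of 0. The median SE of 0.26 to 0.29 limits what 2 or 3 libraries a group can show, and for genes with shared reads the placing of reads adds error that the SE holds only in part. Causes were not tested.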

Other observations

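Counts of the pseudogenes were concentrated in a few IDs. The summed pseudogenes held 0.0605%, 0.0551% and 0.0412% of the counts in iKD2 Dox+, 0.0457% and 0.0473% in iKD2 Dox-, and 0.0493% and 0.0364% in iSCR Dox+. The 3 most abundant held 61.4% of these counts: RPL23AP42 at 66.9 to 171 CPM, RPL22P1 at 72.2 to 178 and RPS2P5 at 45.7 to 99.3, none with whole counts in any library. RPL13P5 and RPL32P3, by contrast, had a count that was not whole in 1 library each, at 1.49 to 16.1 and 0.27 to 27.8 CPM. RPLP0P2 ran from 0 to 22.0 CPM and RPL26P30 from 0 to 18.6 CPM.

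Of the genes under comparison, 9 had whole counts in all libraries: RPL8, RPL11, RPL18, RPL30, RPL35A, RPLP2, RPS4X, RPS21 and RPL10L, the last at 0. A fit restricted to genes with whole counts kept 8 members, with median log2 fold changes of 0.014 for iKD2 Dox+ against iKD2 Dox-, -0.13 for the comparison of iKD2 Dox+ with the scramble line and -0.22 for that of iKD2 Dox-.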
